A study of Sus scrofa with 6 samples.

Results

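Windows of 1 kb that lost MeDIP-seq depth in the longissimus dorsi muscle of 7-year-old pigs were collected across chromosomes 1 to 18. The members were chosen by their depth in all 6 libraries. A window entered the rule when its mean level over the libraries was 10 or more and every library held a level of 2 or more. It became a member when the lowest of the 3 Young levels was at least 1.3 times the highest of the 3 MA levels. In total, 6525 of 906347 windows were members, which was 0.720% of those that entered. The mirror rule, with the lowest MA level at least 1.3 times the highest Young level, chose 7619 windows, or 0.841%. Under median ratio scaling the order of these numbers turned, with 7635 windows losing and 6633 windows gaining depth, so neither direction is described as the commoner.

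The samples were 6 female Jinhua pigs reared under 1 regime, 3 aged 7 years (MA, middle-aged) and 3 aged 0.5 years (Young), with 1 library per animal. The labels name no treatment in either group. MeDIP enriches sheared DNA with an antibody against methylated cytosine and sequences what was pulled down. The libraries held 34801285 to 44341673 fragments, with mean lengths of 251 to 271 bp. A level is the number of fragments whose midpoint lies in a window, scaled to the mean number of fragments per library. No input DNA without the antibody step was analysed here, so fewer copies of a sequence, fewer methylated CpGs and a lower yield of the pull-down cannot be told apart. The depth of DNA holds no marker by which the labelled tissue could be checked.

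In mammals, methyl groups are placed on cytosines of CpG dinucleotides by the DNA methyltransferases and are copied to the new strand after each division. Most of the genome outside CpG islands carries the mark, gene bodies of active genes carry much of it, and promoters rich in CpG mostly lack it. Skeletal muscle fibres are long-lived and their nuclei no longer divide, while satellite cells, vessels and connective tissue in the same piece of muscle turn over at their own rates. An MeDIP level counts molecules and gives no methylated fraction, and a window with few CpGs has a low level even where all of them are methylated.

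At the members, the median level was 12.5 in MA 1, 13.4 in MA 2 and 13.3 in MA 3. The same windows had a median of 27.4 in Young 1, 27.1 in Young 2 and 26.2 in Young 3. Over all windows that entered, the medians lay between 25.0 and 26.6 in the 6 libraries. The Young medians at the members were thus near those of all windows. The MA medians lay under the lower quartile of all windows, which was 14.8 to 16.4 in the 6 libraries. The gaining windows mirrored this, with medians of 25.8 to 27.6 among the MA and 12.5 to 13.7 among the Young libraries. The pattern is therefore no trait of the losing windows alone. The ratio of mean Young to mean MA level had a median of 1.91 over the members, with quartiles of 1.71 and 2.25 and a highest value of 14.1. A ratio of 2 or more was found at 2699 members, of 4 or more at 176 and of 8 or more at 15. The rule chose these values, so no test was made on them.

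**Figure D1:**
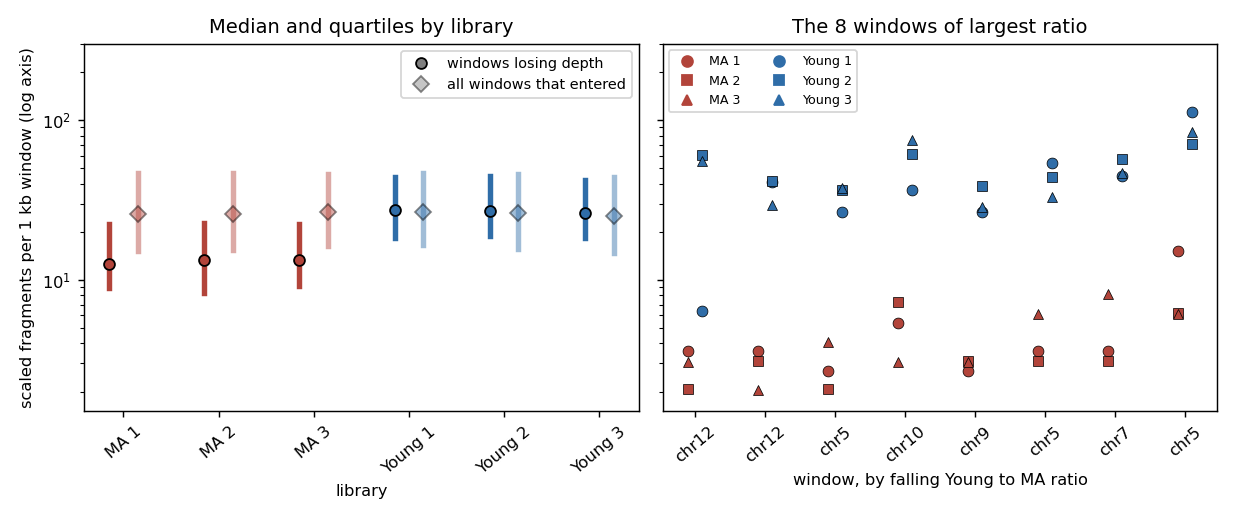
Left, median (symbol) and quartiles (bar) of the scaled fragments per 1 kb window in each library, for the 6525 windows losing depth (circles) and for all 906347 windows that entered (diamonds). Right, the 8 windows of largest ratio, each symbol a library, on the same log axis. The 3 MA medians of the members lie at 12.5 to 13.4 against 26.2 to 27.4 in the Young libraries, and Young 1 lies near the MA libraries in the leftmost window at 6.39.

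The edge of the rule was set by every library in turn. Among the MA libraries, MA 1 was the highest at 30.9% of the members, MA 2 at 36.3% and MA 3 at 32.8%. Among the Young libraries, Young 1 was the lowest at 31.2%, Young 2 at 31.7% and Young 3 at 37.0%. Over all windows that entered, the shares were 27.0%, 30.0% and 42.9% among the MA and 28.5%, 32.6% and 38.9% among the Young libraries. MA 3 was thus the highest less often at the members than over all windows. No library held the edge at most of the members. Within a group, the highest level exceeded the lowest by a median factor of 1.25 among the Young and 1.39 among the MA libraries. Over all windows that entered, the factors were 1.42 and 1.48. The rule favours windows with a small spread within groups, so this contrast is no measure of agreement between animals. At the gaining windows the factors were 1.35 among the Young and 1.28 among the MA libraries. Near the threshold the choice turned on small differences. The member chr15:39902001-39903000 had levels of 34.8, 36.1 and 32.7 among the MA and 49.3, 46.9 and 48.9 among the Young libraries. Just outside, chr1:138038001-138039000 had 19.7, 19.6 and 16.4 among the MA and 25.5, 26.1 and 26.2 among the Young libraries. The other 2 members just inside were chr3:115765001-115766000 and chr11:18294001-18295000, and the other 2 windows just outside were chr14:92826001-92827000 and chr7:91609001-91610000. All 6 were the windows nearest to the ratio of 1.3 on their side.

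At 7 of the 8 members of largest ratio, every MA level was under 10. At chr12:46602001-46603000 the levels were 3.57, 2.06 and 3.07 in MA 1 to 3 and 6.39, 60.5 and 55.8 in Young 1 to 3. Its ratio of 14.1 thus rested on Young 2 and Young 3, and Young 1 stood close to the MA pigs. The next, chr12:55573001-55574000, had 3.57, 3.09 and 2.05 among the MA and 41.1, 41.7 and 29.6 among the Young libraries, a ratio of 12.9. Here all 3 Young libraries were far above all 3 MA libraries. At chr9:14699001-14700000 the MA levels were 2.68, 3.09 and 3.07 and the Young levels were 26.5, 38.6 and 28.5. This window had the widest gap between lowest Young and highest MA of any member, at 8.55 times.

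Of the 8 members of largest ratio, 3 lay on chromosome 5. The window chr5:89525001-89526000 had 2.68, 2.06 and 4.09 among the MA and 26.5, 36.5 and 37.6 among the Young libraries. At chr5:8825001-8826000 the levels were 3.57, 3.09 and 6.14 against 53.8, 43.8 and 33.0. At chr5:9742001-9743000 they were 15.2, 6.19 and 6.14 against 112, 70.9 and 84.2. The groups were far apart at each of the 3, and MA 1 was the highest of the MA libraries at the last. The other 2 of the 8, chr10:2277001-2278000 and chr7:6720001-6721000, had ratios of 11.1 and 10.0. A minimum of 2 in every library also kept 220 windows out that passed the ratio, among them windows with no fragment in some MA library.

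**Figure D2:**
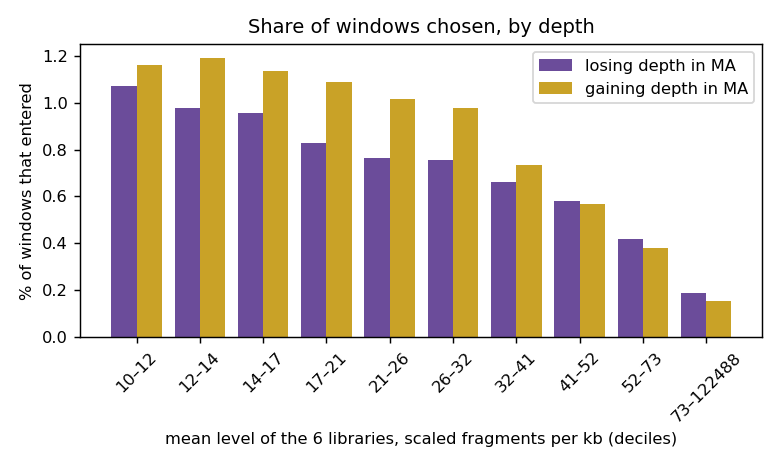
Percent of the windows that entered which lost depth (purple) or gained depth (yellow) in the MA libraries, by deciles of the mean level of the 6 libraries in scaled fragments per kb. From the lowest to the highest decile the shares go from 1.07% and 1.16% to 0.188% and 0.156%.

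The mean level over the 6 libraries had a median of 20.03 at the members, against 26.0 over all windows that entered and 19.8 over the windows gaining depth. The rule used the levels of all 6 libraries, so this mean is not independent of the choice. The mean Young level had a median of 27.1 at the members and 25.7 over all windows that entered. In the lowest decile by level, from 10 to 11.99, 1.07% of windows were members. In the highest decile, above 73.4, the share was 0.188%. The gaining windows ran from 1.16% to 0.156% over the same deciles. Both directions thus thinned out with depth. The size of the loss fell less, from a median log2 ratio of Young to MA of 1.02 in the lowest decile to 0.79 in the highest. Counting error was wide at these depths. A count of 27, near the median Young level of the members, has an exact Poisson 95% interval of 17.8 to 39.3, and a count of 13, near the median MA level, has 6.92 to 22.2. These intervals cover counting error alone, and they overlap.

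The densest members all lay in a single stretch of chromosome 3. The window chr3:26022001-26023000 had levels of 150, 367 and 89.0 in MA 1 to 3 and 513, 510 and 600 in Young 1 to 3. The window chr3:26013001-26014000 had 168, 290 and 138 against 437, 461 and 490. In both, MA 2 stood well above the other MA libraries, and still under all Young libraries. The remaining 3 of the 5 densest members were chr3:26024001-26025000, chr3:26023001-26024000 and chr3:26012001-26013000, with mean levels of 243, 212 and 191.

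A check that the choice could not fix was made on libraries that the choice had not used. For each of the 9 pairs of 1 MA and 1 Young library, the rule was applied to the other 4 libraries, and the held-out pair was then compared. The smaller groups admitted more windows, 25457 to 37986 per pair. Among them, the held-out MA library was lower than the held-out Young library in 60.4% ± 6.4 (SD over 9 pairs). Over all windows that entered, the share was 48.3% ± 4.5, and over windows chosen as gaining it was 37.6% ± 6.2. The share at losing windows was above that of all windows in 8 of the 9 pairs. The exception was MA 1 with Young 1, at 50.8% against 54.8%. Under median ratio scaling the share was above that of all windows in 9 of the 9 pairs, with means of 62.01% and 50.3%. The pairs share libraries, so these values are a description and carry no p.

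Wider gaps in the choosing libraries went with higher held-out shares in 8 of the 9 pairs. Windows with a lowest Young level of 1.3 to 1.5 times the highest MA level were lower in the held-out MA library in 58.7% ± 6.1, windows from 1.5 to 2 times in 61.7% ± 6.8 and windows from 2 times on in 68.4% ± 9.4. For MA 1 with Young 1 the shares ran the other way, from 52.6% to 49.04% to 46.5%. On chromosome 5 the share was 66.7% ± 5.3, against 60.0% ± 6.5 on the other chromosomes. The median held-out log2 difference, with 1 added to each level, was -0.15 ± 0.09 at losing windows and 0.03 ± 0.05 over all windows. These sizes were much smaller than the median log2 ratio of 0.94 among the members. For MA 1 with Young 1 the median was -0.028 at losing windows and -0.030 over all windows.

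Clusters held up differently from lone windows. Windows chosen by 4 libraries that stood alone, with no other start less than 10 kb away, were lower in the held-out MA library in 57.8% ± 5.5. Windows in clusters of 5 or more, joined where starts were less than 10 kb apart, were lower in 72.2% ± 17.5, with a range of 28.8% to 84.8%. The summed level of such clusters was lower in the held-out MA library at 67.3% of 343 clusters for MA 2 with Young 1 and at 86.3% to 97.4% of the clusters in 7 other pairs. For MA 1 with Young 1 held out, the rule found 688 clusters, and 29.2% of them were lower in MA 1. In that pair 56.5% of the windows in clusters lay within 5 Mb of a chromosome end, against 11.7% to 35.4% in the other 8 pairs. The part of the chromosome ends in that exception was not tested. Windows chosen as gaining mirrored the contrast, lower in the held-out MA library in 40.0% ± 6.6 when alone and in 29.4% ± 6.0 in clusters of 5 or more. It is therefore no trait of the losing windows alone.

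**Figure D3:**
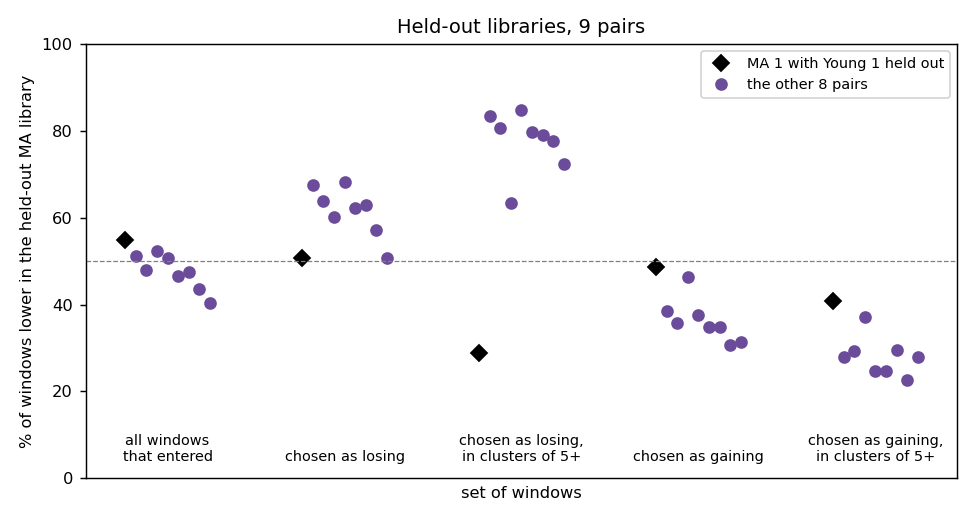
Percent of windows with a lower level in the held-out MA than in the held-out Young library, for 5 sets of windows. Each symbol is 1 of the 9 pairs, the black diamond is MA 1 with Young 1, and windows were chosen on the other 4 libraries. Windows chosen as losing in clusters of 5 or more lie at 63.3% to 84.8% in 8 pairs and at 28.8% in the pair with the diamond.

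A fit across all windows gave few calls. With limma on log2 of the level plus 1, in 909224 windows with a mean of 10 or more, 4 windows (0.00044%) were lower in MA at an adjusted p of 0.01 or less, and 3 of these were members. In the other direction 14 windows (0.00154%) were called. At an unadjusted p under 0.05, 29977 windows (3.3%) were lower and 36828 (4.05%) higher in MA, the former with 6339 of the 6525 members. The rule used the same contrast, so nothing is read from the members' calls. All 4 windows called lower in MA lay on chromosome 5, and they are named here after their values were seen. The window chr5:2947001-2948000 had levels of 6.25, 4.13 and 5.11 among the MA and 51.1, 49.03 and 47.8 among the Young libraries (limma adjusted p = 0.00539). At chr5:12702001-12703000 the levels were 6.25, 9.28 and 6.14 against 51.1, 57.4 and 59.2 (limma adjusted p = 0.00698). At chr5:14158001-14159000 they were 8.04, 10.3 and 5.11 against 75.7, 85.5 and 58.0 (limma adjusted p = 0.00774). The rule required these 3 members to be lower in every MA than in every Young library. The last, chr5:11940001-11941000, had no fragment in any MA library and 31.9, 53.2 and 47.8 in the Young libraries (limma adjusted p = 0.00539). It failed the minimum of 2 and was no member, and a count of 0 allows up to 3 fragments per library. The calls depended on the processing and on single libraries. No window was called lower in MA under median ratio scaling, with a minimum mean of 20, or without MA 2, Young 2 or Young 3, and without MA 3 the number was 141.

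Members were spread over all 18 chromosomes, and unevenly. Chromosome 5 held 4.73% of the windows that entered and 8.35% of the members, with 545 of 42827 windows, or 1.27%, losing depth. It also had the highest share gaining depth, at 1.31%. Chromosome 18 followed for loss with 0.997%, and chromosome 17 was lowest with 0.330%. The distance between chromosomes was wider for strong losses. Of the 176 members with a ratio of 4 or more, 41 lay on chromosome 5, and the next highest number was 18 on chromosome 1, which had 97043 windows that entered. Between 2 and 20 Mb of chromosome 5, a range chosen after the values were seen, 2.212% of 9675 windows lost depth and 2.83% gained it. There the members of ratio 4 or more came to 2.07 per 1000 windows, against 0.156 per 1000 on the other chromosomes. Gaining windows of ratio 4 or more were dense there too, at 1.55 per 1000 against 0.211 on the other chromosomes. The rest of chromosome 5 had 0.633 losing and 0.0905 gaining windows of this size per 1000.

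Chromosome ends held somewhat fewer members than their share of windows. The outer 5 Mb at each end held 11.8% of the windows that entered, 9.90% of the members and 9.74% of the gaining windows. In the outer 1 Mb, 0.411% of windows were members against 0.727% of the rest. Windows near the ends were deeper, and depth moved with the share. Among windows up to the median level of 26.0, 1.01% were members in the outer 5 Mb and 0.913% elsewhere. Above the median level the shares were 0.446% and 0.536%. The low share at the ends was thus found in the deeper windows alone. Without Young 1 the outer 5 Mb held 17.5% of the windows losing depth, above the 11.8% of windows that entered, so that library decided the direction.

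At the scale of a megabase the share of members varied. Over 2129 megabases with 100 or more windows that entered, the median share of members was 0.552%, and 379 megabases held none. In 46 megabases the share was 3% or more. These 46 held 1.83% of the windows that entered and 10.2% of the members. They were picked by their share of members, so that excess follows from the choice. Megabases with few windows reach 3% with few members, such as 5 of 138 from 59 to 60 Mb on chromosome 3. No expected spread is given here. In the 46, 2.51% of the windows gained depth, which was above the 0.841% of all windows. Across the 2129 megabases the shares of losing and gaining windows had a Pearson r of 0.34, a description of points that share libraries and depth.

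The densest megabases were of different make. The following were picked after their values were seen. From 54 to 55 Mb on chromosome 2, 20 of 220 windows (9.09%) lost and 1 gained depth, and 73.9% of the other windows that entered were lower in the MA libraries. Windows under a mean of 10, which the rule could not choose, had an MA to Young ratio of 0.773 in that megabase against 0.949 over all such windows. The whole megabase thus lay lower in the MA libraries. From 118 to 119 Mb on chromosome 9, 32 of 505 windows lost and 8 gained depth, with 55.1% of the others lower. From 55 to 56 Mb on chromosome 12, 30 of 533 windows lost and 19 gained depth, and 46.1% of the others were lower, against 46.8% over all windows that were in neither set. That megabase held windows of both directions. From 8 to 9 Mb on chromosome 5, 30 windows lost and 19 gained depth. From 89 to 90 Mb on chromosome 5 there were 16 losing and 1 gaining, and from 16 to 17 Mb on chromosome 18 there were 20 losing and 2 gaining.

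Most members stood alone at the scale of the window. Of the 6525, 445 (6.82%) adjoined another member and 1606 (24.6%) had another within 10 kb. For the gaining windows these shares were 5.32% and 21.3%. Joined where starts were less than 10 kb apart, the members made 5611 clusters, of which 4996 held 1 member, 146 held 3 or more and 29 held 5 or more. The gaining windows made 11 clusters of 5 or more, with 8 windows in the largest, against 19 in the largest cluster of members. The 29 clusters lay on 12 chromosomes, 2 of them on chromosome 5, and spanned 5 to 59 kb. Within their spans, 264 of the 305 other windows that entered (86.6%) were lower in the MA libraries. In 27 of the 29 no window gained depth. Over all windows that entered, 0.841% gained depth, so few gaining windows were to be looked for among 305. No lack of them is read from this count.

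The largest cluster ran over 30 kb, chr3:26011001-26041000, and held 19 members. All 11 other windows in it were lower in MA as well. The whole span had a level of 1977 in MA 1, 3711 in MA 2 and 1606 in MA 3, and 5271, 5713 and 5780 in Young 1 to 3. The Young libraries lay within 10% of each other, and the MA libraries differed by more than a factor of 2, with MA 2 the highest. Inside it ran the longest row of adjoining members, chr3:26021001-26028000, with 7 windows and summed levels of 599, 1134 and 455 among the MA and 1782, 1772 and 1779 among the Young libraries. Another of the 5 longest rows, chr3:26011001-26015000 with 4 windows, opened the same cluster, with 372, 612 and 313 against 922, 1038 and 1021.

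On chromosome 18, 2 neighbouring clusters had levels close together within each group. The cluster chr18:16015001-16047000 held 12 members in 32 kb, and 11 of its other 12 windows were lower in MA. Its span had levels of 630, 611 and 604 among the MA and 1127, 1133 and 1132 among the Young libraries, a ratio of 1.84. The row chr18:16001001-16006000, 5 adjoining members at slightly lower positions, had summed levels of 213, 191 and 205 against 380, 425 and 423. The members were chosen for this separation, and the rule favours a small spread within groups, so both are given as a description. On chromosome 9, the span chr9:118047001-118106000 had 13 members in 59 kb, with 1141, 949 and 1059 among the MA and 1650, 1750 and 1710 among the Young libraries. The row chr9:121436001-121441000 was of lower depth, with 5 adjoining members and 62.5, 33.0 and 46.0 against 137, 136 and 134. The cluster chr7:6962001-6984000 was an exception, since its span had a lowest Young level of 0.897 times the highest MA level and the groups overlapped.

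**Figure D4:**
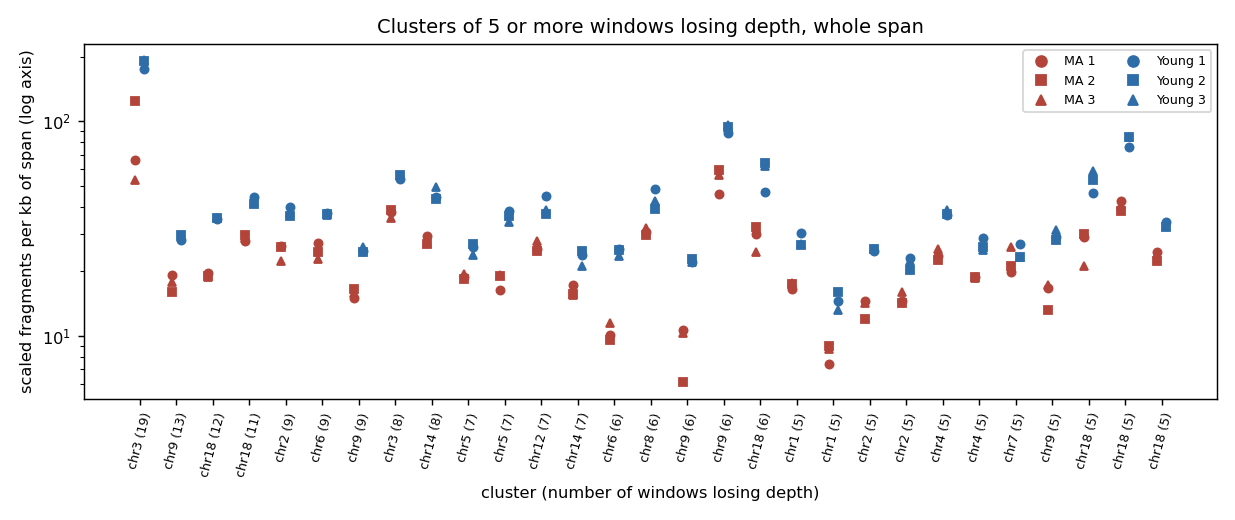
Scaled fragments per kb over the whole span of each of the 29 clusters of 5 or more windows losing depth, on a log axis, with 1 symbol per library. Clusters are ordered by their number of members, given in brackets. The MA symbols lie under the Young symbols in all clusters but the one on chromosome 7, and MA 2 stands above the other MA libraries in the leftmost cluster on chromosome 3. The spans include the members, which the rule chose for this separation, so it is largely set by the choice.

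Around the members the levels were averaged by distance from the centre. The rule chose each window for its gap between the groups, so the gap inside and its step at the border are largely set by the choice. Averaged over 6523 members, the level per 100 bp inside the window was 1.79, 1.81 and 1.78 in MA 1 to 3 and 3.48, 3.53 and 3.42 in Young 1 to 3. From 0.5 to 1 kb from the centre, just outside the window, the mean was 2.05 ± 0.02 among the MA and 2.40 ± 0.03 among the Young libraries (SD, n = 3). From 1 to 5 kb it was 2.04 ± 0.02 against 2.24 ± 0.02. The ratio of MA to Young was thus 0.516 inside, 0.852 at the border and 0.910 farther out. Other members nearby were not left out of these averages, and 17.1% of the members had another within 5 kb. The values outside the window thus include some windows that the rule chose. Inside the window the Young level rose above its surroundings and the MA level sank a little under its own. Windows gaining depth showed the mirror image, with 1.92 inside, 1.13 at the border and 1.06 farther out.

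Neighbouring windows that belonged to neither set leaned the same way. At 1 kb from a member, 63.4% of 7154 such windows were lower in MA, with a median log2 MA to Young ratio of -0.13. At 10 kb the share was 57.2% and at 50 kb 51.9%, against 46.8% over all windows in neither set. By 100 kb it was 48.4%. Around gaining windows the share leaned the other way, at 35.0% at 1 kb, 40.8% at 10 kb and 44.8% at 100 kb. A lean of the surroundings is therefore no trait of the losing windows alone. Inside a member the difference was itself uneven. The stretch of 200 bp that held most of it carried a median of 68.9% of the difference, where an even spread would give 20%, although a maximum picked among noisy counts is above the even share by construction.

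**Figure D5:**
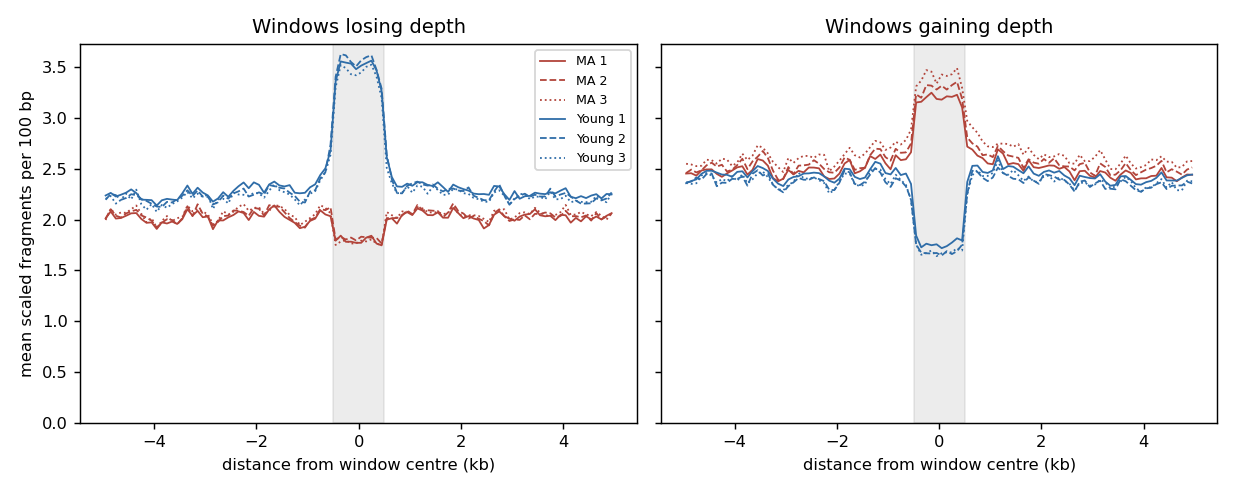
Mean scaled fragments per 100 bp against the distance from the window centre in kb, for windows losing depth (left) and gaining depth (right), with a line per library and the window shaded. At the losing windows the Young lines average 3.42 to 3.53 and the MA lines 1.78 to 1.81 inside the window, and outside the window the Young lines stay above the MA lines as far as 5 kb.

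Fragment length, which the rule had not used, was compared over the 6 libraries. The mean fragment length at the members, less that at all windows that entered, was -0.75, 0.85 and -0.31 bp in MA 1 to 3 and -0.25, -0.95 and -0.30 bp in Young 1 to 3. The groups overlapped, with a difference of 0.43 bp (two-sided exact permutation test, p = 0.6, where 3 against 3 cannot go below 0.1). Fragments that shared both ends with another of their library made up 0.671%, 0.545% and 0.475% of those at the members among the MA, and 0.776%, 1.12% and 0.784% among the Young libraries. Over all windows that entered the share was 2.00% to 2.57%. Relative to those windows the MA libraries stood at -1.73 ± 0.19 and the Young libraries at -1.40 ± 0.10 percentage points (SD, n = 3). At the gaining windows the order was the reverse, at -1.66 ± 0.18 and -1.78 ± 0.11. The chance that fragments share both ends depends on the number of fragments in a window, which the rule used, so it is given as a description with no test.

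Genes could be named at some members through the study's list of differentially methylated regions, of which 1826 regions on these chromosomes were given. Its intron entries were given for some chromosomes alone, so the genes below are no full account. A gene was taken where the midpoint of a listed region lay in a member. This paired 323 members with 291 gene entries, and 162 gaining windows also held a listed region. Of the members, 39 were paired at a promoter, 53 at an exon and 250 at an intron. How all listed regions divide between these places is not given here, so no excess is read from these counts. Over all genes the listed regions fell in 1801 windows, of which 17.9% were members and 8.995% gained depth, and the counts of each gene group below stand against these shares. The list was drawn from these same libraries, so it is no independent evidence of direction.

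Among the paired members the largest ratio was at an exon of NLRP2, named by its human counterpart and a member of a family of innate immune sensors. Its window chr6:40840001-40841000 had levels of 3.57, 2.06 and 17.4 among the MA and 44.7, 41.7 and 45.5 among the Young libraries, so that MA 3 stood apart from the other MA pigs. An intron of SLC6A6, the taurine transporter, had 7.15, 6.19 and 2.05 against 25.5, 32.3 and 23.9 at chr13:58374001-58375000. An intron of TNC, which encodes the matrix protein tenascin-C, had 5.36, 3.09 and 3.07 against 20.98, 18.8 and 18.2 at chr1:268552001-268553000. The MA levels of both were a small part of the Young levels in every library. An intron of PPP3CC, a catalytic subunit of calcineurin, had 6.25, 6.19 and 13.3 against 34.7, 40.7 and 29.6 at chr14:6723001-6724000. The ratios of the other 6 ran from 4.33 at NIPAL1 to 3.81 at MYO18B, through the window shared by APH1B and CA12, then ATP6V0A4, MAP2K5 and CPB2.

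Of the genes for sarcomere and muscle structure, 14 entries had listed regions in 31 windows, of which 14 (45.2%) were members, at 7 entries, and 0 gained depth. The share of members among all listed windows was 17.9%, and the difference was not tested. MYO18B encodes an unconventional myosin needed for sarcomere assembly, and an exon window at chr14:44122001-44123000 had 10.7, 8.25 and 5.11 among the MA and 28.3, 28.2 and 35.3 among the Young libraries. All 3 Young libraries were above all 3 MA libraries there, as the rule required.

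SVIL, which encodes the actin-binding protein supervillin, had the most members of any gene, 6 between 39493001 and 39602000 on chromosome 10. Their ratios ran from 1.49 to 2.09. The window of largest ratio, chr10:39553001-39554000, had 18.8, 22.7 and 16.4 among the MA and 42.9, 32.3 and 45.5 among the Young libraries. NEB, which encodes the thin filament ruler nebulin, had an intron and an exon window under separate gene entries, with ratios of 2.19 and 1.83. CAPN3, the calpain of muscle, had 30.4, 19.6 and 26.6 against 52.0, 55.3 and 51.2 at an intron. MYOM2, which encodes an M-band protein, had 63.4, 72.2 and 45.01 against 99.4, 113.7 and 108 at an exon. No group overlap was seen at any of these, as the rule required.

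Of the genes of the ubiquitin and proteasome system, chosen by the start of their symbols, 30 entries had listed regions in 48 windows. Of these, 9 (18.8%) were members, at 8 entries, and 1 gained depth, so the share of members was near the 17.9% of all listed windows. The conjugating enzyme UBE2E2 had an intron window with 17.9, 11.3 and 13.3 among the MA and 32.8, 37.6 and 37.6 among the Young libraries. UBE2G1, another such enzyme, had 2 members with ratios of 2.36 and 1.58, and UBE2H had 1 with 2.06. PSMA3, a subunit of the 20S proteasome core, had 25.9, 39.2 and 33.8 against 64.8, 56.3 and 61.5 at an intron. The others were FBXO28, USP54, NUB1 and USP6NL, with ratios of 1.96, 1.95, 1.68 and 2.25. USP6NL entered by its symbol and encodes a GTPase-activating protein for RAB GTPases.

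Of the genes of growth signalling and energy metabolism, 14 entries had listed regions in 51 windows. Of these, 11 (21.6%) were members, at 7 entries, and 5 (9.80%) gained depth, both near the shares of 17.9% and 8.995% over all listed windows. MAP2K5, the kinase above ERK5, had 16.1, 13.4 and 14.3 among the MA and 38.3, 62.6 and 67.1 among the Young libraries at an intron. FOXO3, a transcription factor that drives atrophy genes, had 2 intron members, and the stronger had 12.5, 11.3 and 15.3 against 20.98, 31.3 and 28.5. IGF1R, the receptor for insulin-like growth factor 1, had 17.9, 17.5 and 15.3 against 33.8, 26.1 and 38.7. At all 3 every MA library was lower than every Young library, as the rule required.

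RHEB, the GTPase that activates mTORC1, had 3 intron members within chr18:4988001-5022000, a cluster of 11 members. That span had summed levels of 943, 1001 and 970 among the MA and 1512, 1408 and 1432 among the Young libraries, a ratio of 1.49, and 19 of its 20 other windows were lower in MA. The cluster thus lay lower along its length, beyond its 11 members. CAB39, a scaffold of the LKB1 kinase, had 2 members with ratios of 2.02 and 1.66. NCOR1, a corepressor of nuclear receptors, had a ratio of 1.95, and OGDH, a subunit of the 2-oxoglutarate dehydrogenase complex, had 1.54.

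Genes outside these lists that had 3 or more members were MAP4, SYNE1, LEO1, C9orf61 and BAGE2. MAP4, a microtubule-associated protein, had 5 members with ratios of 1.54 to 1.82. SYNE1, named by its human counterpart and a linker of nuclei to the cytoskeleton, had 4, of which 1 was at its promoter. Its promoter window, chr1:15002001-15003000, had 6.25, 11.3 and 13.3 among the MA and 18.2, 22.9 and 21.6 among the Young libraries. LEO1, a subunit of the PAF1 complex of transcription, had 3 with ratios of 2.23 to 3.46.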

How the data were processed

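The deposited files hold positions of fragments, made from paired reads of 50 bp per the labels. Per the methods the authors aligned them with SOAP2 to the Sscrofa9.2 pig genome and merged reads at the same place. The unit is an interval (chromosome, start, end), with no score or count that the authors normalised. How pairs became intervals is not given in the sources used here, and 1.76% to 2.28% of intervals per library were repeated. Starts were read as counted from 1. Fragments were counted by midpoint in 1 kb windows and scaled to the total of each library. Windows with a mean of 10 or more were fitted with limma 3.58.1 (R 4.3.3, trend, pseudocount 1, Benjamini-Hochberg, threshold 0.01). The fit was tried on simulated Poisson counts with no variation between animals, which gives no error rate for these data. Exact permutation tests were two-sided. The members and gene lists were chosen with earlier results of these data known. Named windows were the 8 of largest ratio (1 per cluster), the 5 longest rows, the 5 deepest and the 3 nearest on each side of the threshold. Genes were named for the 10 paired members of largest ratio, for 3 lists and for genes with 3 or more members. CpG content and chromosome X were not analysed here. The results at 1 gene and 1 of the 5 rows are not reported here.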

Additional observations from a re-analysis of the deposited data

How the results depend on the processing

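The number of windows losing depth stayed within 1.5 times of 6525 under both other scalings, shifted, 500 bp or 2 kb windows, no minimum in single libraries, repeated intervals counted once and fragments of 200 to 300 bp. With 2 kb windows, as with median ratio scaling, losing windows outnumbered gaining ones (4407 against 3536). It moved to 3268 with a minimum mean of 20, to 12360 with a ratio of 1.2 and to 2288 with a ratio of 1.5, and lay between 11950 and 19031 with a library left out. The held-out share lay between 58.6% and 63.5% in all 11 alternatives. The windows limma called lower in MA, 4 in number, became 73 at a threshold of 0.05, 2 with a pseudocount of 0.5, 0 with a minimum mean of 20 (tested on fewer windows) or with median ratio scaling, 8 with quantile normalization and 0 to 141 with a library left out. The causes were not tested. The difference in fragment length turned to -2.20 bp without Young 1 and lay between -2.20 and 0.793 bp with a library left out, and that in repeated intervals lay between -0.852 and -0.274 percentage points. The clusters of 5 or more, alternatives added after seeing the data, numbered 11 with a minimum mean of 20 (7 gaining), 19 with fragments of 200 to 300 bp (10 gaining) and 28 to 36 in the other 5.

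Deviations from the group means, in windows with a mean of 20 or more, had correlations of -0.34, 0.12 and -0.30 for numbers 1, 2 and 3. Within a group such deviations cancel out, so the 9 correlations are tied to each other. They cannot settle whether libraries of equal number share more than the number. The highest of the 9 correlations was 0.44, for MA 3 with Young 1. With the replicate block, requiring the ratio within each pair, 16315 windows lost depth, and limma called 0. In the paired form the difference of 0.43 bp had an exact p of 1, and the difference in repeated intervals was -0.327 percentage points. At the depth of the median member, the counting intervals of 1 library per group overlap.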
